A study of Mus musculus with 9 samples.

Results

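Matrix glycoproteins, proteoglycans, elastic fiber proteins and crosslinking enzymes were described in liver of mice with and without deletion of Scd2 in Col1a1-expressing cells. The gene set was a list of 43 gene symbols, and its members were the genes of the deposited table with those symbols. The table of 16755 genes holds 40 of them, and Mfap2, Mfap5 and Thbs3 were not analysed here. Polyadenylated RNA was sequenced from 9 male mice in 3 groups of 3, C57BL/6 by the labels and on a C57BL/6J background by the paper's methods. Scd2 encodes stearoyl-CoA desaturase 2, an enzyme that makes monounsaturated fatty acids, and both copies of it carried a floxed exon in all 3 groups. Scd2f/f;CC mice also carried Col1a1-Cre, in which the promoter of Col1a1 drives the recombinase and is active in hepatic stellate cells (HSC) and portal fibroblasts. Animals of that genotype, and a second group of Scd2f/f mice without Cre, received the liver carcinogen diethylnitrosamine (DEN, 10 mg/kg) when 2 weeks old and a Western alcohol diet (WAD), a liquid diet, from the age of 6 weeks. The labels give 4 months of WAD and the paper's methods a longer time. The third group was untreated Scd2f/f mice, whose age the labels do not give; the paper gives only an age range for all its mice. The labels call the tissue liver, and the paper calls it tumor-adjacent liver in its results and NTL, which it does not spell out, in its RNA methods. The groups are called Scd2f/f;CC DEN+WAD liver, Scd2f/f DEN+WAD liver and control liver.

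The extracellular matrix of liver is laid down largely by activated HSC and portal fibroblasts. Collagen fibrils are bound and spaced by small leucine-rich proteoglycans such as decorin. Elastic fibers form when tropoelastin is deposited on fibrillin microfibrils with the help of fibulins, and lysyl oxidases crosslink both elastin and collagen. Latent transforming growth factor-β (TGF-β) binding proteins tether the inactive growth factor to these fibers, and matricellular proteins such as thrombospondins and tenascin act on cells more than on structure. Fibronectin and vitronectin differ from the rest in that hepatocytes secrete both in large amounts into plasma.

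Values are group means of upper-quartile normalized read counts, called normalized counts here, as the authors deposited them with 3 significant digits. Because only group means were analysed, no spread, standard error or test is given, and every comparison is a ratio of 2 means without a replicate check. The 3 means of a gene, where groups are not named again, are always in the order control liver, Scd2f/f DEN+WAD liver, Scd2f/f;CC DEN+WAD liver. The depth of each library is unknown. A ratio of at least 2-fold was counted in either direction, and for members the same count over all genes is given beside it. The lowest value of a column, shared by 107 genes in Scd2f/f DEN+WAD liver, 151 in Scd2f/f;CC DEN+WAD liver and 118 in control liver, was taken as the level of a gene without reads. The comparisons of Scd2f/f DEN+WAD liver with control liver and of Scd2f/f;CC DEN+WAD liver with Scd2f/f DEN+WAD liver share the Scd2f/f DEN+WAD liver mean, so a high value there raises the first ratio and lowers the second. Scd2 itself, measured as a whole gene, had a mean of 2.46 in control liver, 6.47 in Scd2f/f DEN+WAD liver and 1.87 in Scd2f/f;CC DEN+WAD liver.

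Promoters of 3 genes are shown to set the gene with the lowest measured ratio of Scd2f/f;CC DEN+WAD liver to Scd2f/f DEN+WAD liver among members with a mean of at least 1 (Ltbp2) and a proteoglycan gene that was low (Fmod) beside a gene that was not lower (Vtn). The windows run from 250 bases before to 50 bases after the RefSeq start, 5′ to 3′ on the strand of the gene, in GRCm38.p6. Capitals mark GGAATG, the core that TEAD factors bind, and CAGAC, a half-site bound by SMAD factors, searched on both strands, and no base lies in more than 1 of these matches. The Ltbp2 window is chr12:84876442-84876741 on the minus strand, with 3 CAGAC matches. The Fmod window is chr1:134037004-134037303 on the plus strand, with 2 CAGAC matches. The Vtn window is chr11:78498870-78499169 on the plus strand, with 2 GGAATG matches and 1 CAGAC match.
Ltbp2: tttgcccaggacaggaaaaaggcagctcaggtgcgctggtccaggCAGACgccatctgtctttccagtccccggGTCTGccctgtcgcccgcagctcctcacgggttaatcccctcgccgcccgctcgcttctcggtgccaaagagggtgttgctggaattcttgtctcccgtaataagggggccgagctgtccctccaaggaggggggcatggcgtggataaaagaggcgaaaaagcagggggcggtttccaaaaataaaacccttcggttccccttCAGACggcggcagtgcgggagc
Fmod: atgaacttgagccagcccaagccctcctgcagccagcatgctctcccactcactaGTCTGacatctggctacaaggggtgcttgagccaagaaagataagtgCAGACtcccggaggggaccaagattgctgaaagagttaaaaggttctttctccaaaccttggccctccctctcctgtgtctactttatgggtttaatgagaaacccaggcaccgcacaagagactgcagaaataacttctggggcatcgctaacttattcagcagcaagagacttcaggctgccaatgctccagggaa
Vtn: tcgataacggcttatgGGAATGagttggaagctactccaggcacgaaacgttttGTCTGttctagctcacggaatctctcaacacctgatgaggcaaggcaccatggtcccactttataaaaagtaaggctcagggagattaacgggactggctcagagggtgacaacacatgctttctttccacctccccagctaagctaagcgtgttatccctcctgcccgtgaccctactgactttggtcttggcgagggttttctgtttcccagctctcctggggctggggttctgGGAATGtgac
Promoter windows were found for 27 of the members, 37 windows in all. CAGAC occurred in 21 of these 37 windows (56.8%), against 49.6% of 32851 mouse promoter windows of the same length. GGAATG occurred in 2 of 37 (5.41%), those of Ogn and Vtn, against 14.7% of all windows. The palindrome GTCTAGAC, which 0.213% of all windows hold, was in none of the 37. A match only says that these letters are in the window.

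In Scd2f/f;CC DEN+WAD liver, 36 of the 40 genes had a lower mean than in Scd2f/f DEN+WAD liver (90%, against 49.6% of all genes), and 15 were at least 2-fold lower (37.5%, against 4.07% of all genes). Without Fbn2, whose mean in Scd2f/f;CC DEN+WAD liver is the lowest value of its column, 14 of 39 were. None was at least 2-fold higher, against 1.82% of all genes. The genes at least 2-fold lower spanned elastic fiber genes (Eln, Fbn1, Fbn2, Fbln1, Fbln5 and Mfap4), crosslinkers (Lox and Loxl1), latent TGF-β binding proteins (Ltbp2 and Ltbp3), proteoglycans (Lum, Fmod and Vcan) and the matricellular genes Thbs1 and Tnc. The median log2 ratio of the 40 was -0.85, beside 0.00 over all genes. The 4 genes that were not lower were Fn1, Vtn, Loxl4 and Aspn.

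In Scd2f/f DEN+WAD liver against control liver, 37 of 40 had a higher mean (92.5%, against 53.7% of all genes) and 12 were at least 2-fold higher (30%, against 9.37% of all genes). The median log2 ratio was 0.68, beside 0.04 over all genes. The 12 were Lox, Fbn2, Vcan, Ltbp2, Tnc, Mfap4, Fbn1, Eln, Prelp, Loxl1, Loxl2 and Thbs2. Aspn was the 1 gene at least 2-fold lower, against 4.69% of all genes, and Ogn and Mgp were the other genes with a lower mean.

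The comparison of Scd2f/f;CC DEN+WAD liver with control liver uses the same group means, so its ratios follow from those of the other comparisons. In it, 23 of the 40 were lower (57.5%, against 45% of all genes) and 17 higher. The median log2 ratio was -0.12, beside 0.05 over all genes. Fmod, Aspn and Mgp were at least 2-fold lower (7.5%, against 4.64% of all genes), each with a mean under 1 in both groups. None was at least 2-fold higher, against 6.41% of all genes. Of 26 members whose mean reached 1 in one of these groups, none was at least 2-fold lower or higher, against 3.08% and 4.71% of all genes at that level, and their median log2 ratio was 0.02.

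**Figure D1:**
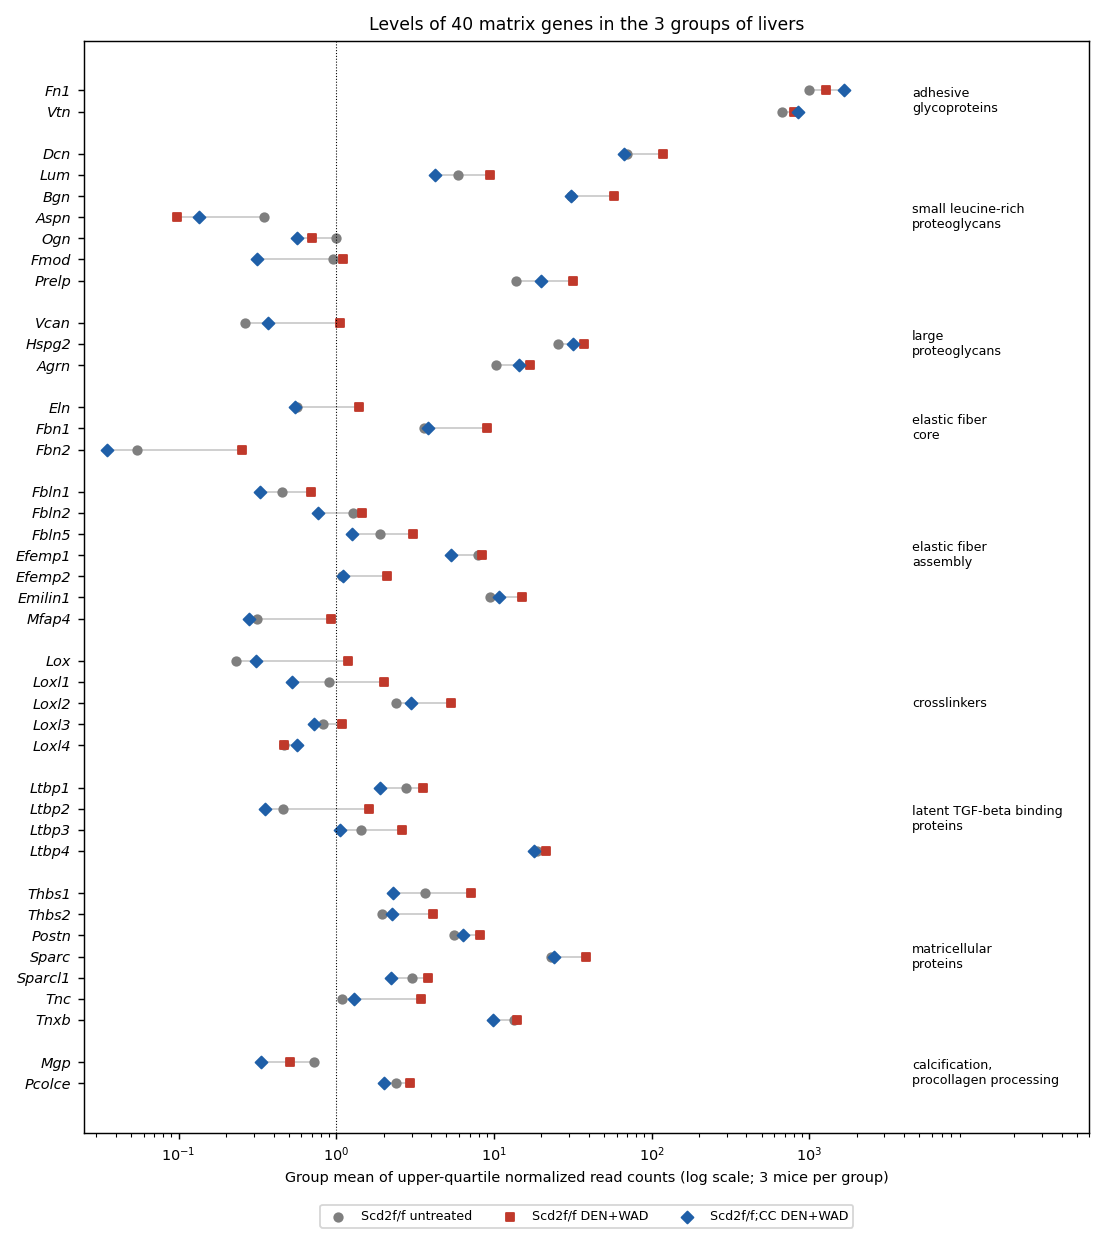
Group means of upper-quartile normalized read counts of the 40 genes on a log axis, grouped by role, with 1 point for each group of 3 mice and a line joining the points of a gene. The Scd2f/f DEN+WAD liver point (square) is the rightmost for all genes except Fn1, Vtn, Aspn, Ogn, Loxl4 and Mgp, the dotted line marks a mean of 1, and no error can be drawn because the values are group means.

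Low means gave larger ratios among all genes, so the counts were also taken by level, a choice made after the values had been seen. Of the 40 genes, 7 had a mean under 1 in every group (Aspn, Ogn, Fbn2, Fbln1, Mfap4, Loxl4 and Mgp), 33 reached 1 in at least 1 group and 11 reached 10. Among genes with a mean between 1 and 10 in the higher group, 12 of 22 members were at least 2-fold lower in Scd2f/f;CC DEN+WAD liver than in Scd2f/f DEN+WAD liver (54.5%, against 3.25% of all genes at that level). At a mean of at least 10, none of 11 members was at least 2-fold lower, against 0.82% of genes at that level. Dcn, Bgn, Prelp and Sparc, 4 of these 11, were at least 1.5-fold lower (36.4%, against 2.23%), and the median log2 ratio of the 11 was -0.48 beside 0.02 for genes at that level. In Scd2f/f DEN+WAD liver against control liver, 9 of 22 members at the middle level were at least 2-fold higher (40.9%, against 11.4%). At a mean of at least 10, Prelp alone among 11 was (9.09%, against 3.39%), and 6 of 11 were at least 1.5-fold higher (54.5%, against 8.54%). Set against genes of similar mean, 26 of the 40 members lay below the 5th percentile of the log2 ratio of Scd2f/f;CC DEN+WAD liver to Scd2f/f DEN+WAD liver and none above the 95th. For Scd2f/f DEN+WAD liver against control liver, Bgn, Prelp, Fbn1, Fbn2 and Lox, 5 of the 40, lay above the 95th percentile, and Aspn lay below the 5th.

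**Figure D2:**
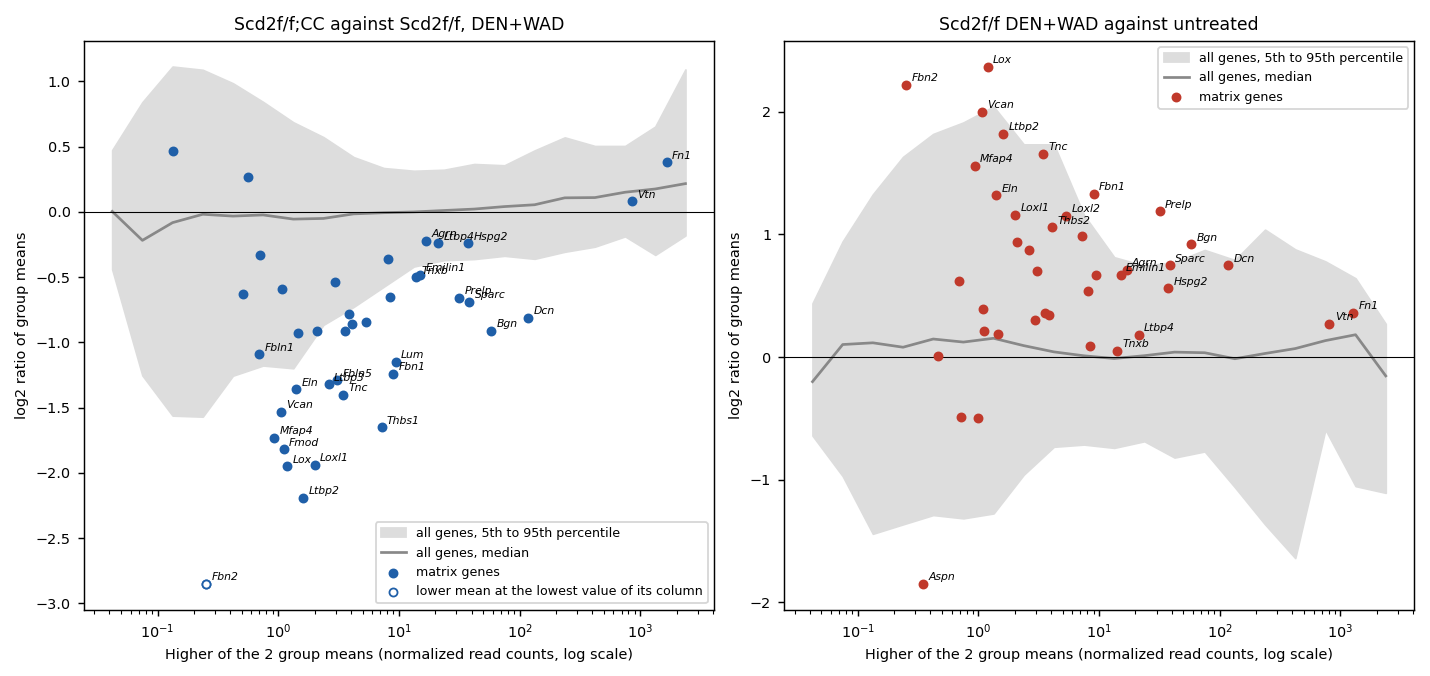
The log2 ratio of each gene against the mean of the higher group on a log axis, in both comparisons, with members as colored points, a gray band from the 5th to the 95th percentile of all genes of similar mean and a gray line at their median (4 bins per decade of mean). In Scd2f/f;CC DEN+WAD liver against Scd2f/f DEN+WAD liver, 26 of 40 members lie below the 5th percentile of their bin; the open point is Fbn2, whose Scd2f/f;CC mean is the lowest value of its column.

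Per kilobase of exon, the 40 genes were dominated by Vtn and Fn1. In Scd2f/f DEN+WAD liver, Vtn had a level of 398 normalized counts per kb and Fn1 of 110, followed by Dcn at 20.2, Sparc at 10.2, Bgn at 9.49 and Prelp at 8.77. Vtn and Fn1 made up 89.3% of the summed level per kb of the 40 genes in control liver, 86.3% in Scd2f/f DEN+WAD liver and 92.1% in Scd2f/f;CC DEN+WAD liver. The summed level of the other 38 genes was 49.8 per kb in control liver, 80.7 in Scd2f/f DEN+WAD liver and 48.5 in Scd2f/f;CC DEN+WAD liver, a ratio of 0.601 between the DEN+WAD groups. That sum was 1.62 times as high in Scd2f/f DEN+WAD liver as in control liver and 0.974 times as high in Scd2f/f;CC DEN+WAD liver as in control liver. Over all 40 genes, where the plasma proteins weigh most, the sums were 466, 588 and 611 in the same order.

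The adhesive glycoproteins were not lower in Scd2f/f;CC DEN+WAD liver than in Scd2f/f DEN+WAD liver. Fn1, which encodes fibronectin, a protein of plasma and of provisional matrix, had a mean of 1000 in control liver, 1280 in Scd2f/f DEN+WAD liver and 1660 in Scd2f/f;CC DEN+WAD liver. Vtn, which encodes vitronectin, had means of 671, 807 and 854 in the same order. Both were thus highest in Scd2f/f;CC DEN+WAD liver, with ratios to Scd2f/f DEN+WAD liver of 1.30 and 1.06. Their log2 ratios, 0.38 and 0.08, lay between the 5th and 95th percentiles of all genes of similar mean. The median of those genes was 0.176 at the level of Fn1 and 0.151 at that of Vtn. The gene-level value of Fn1 does not separate the plasma form from the form that cells deposit locally. Hepatocyte markers had a summed mean of 41700 in control liver, 39400 in Scd2f/f DEN+WAD liver and 43300 in Scd2f/f;CC DEN+WAD liver. Alb weighed most in these sums, with means of 21300, 20900 and 22700. By any amount, 8 of 10 were higher in Scd2f/f;CC DEN+WAD liver than in Scd2f/f DEN+WAD liver, as were 8298 of all 16755 genes. Their median log2 ratio was 0.21, and medians by level of all genes with means from 178 to 3162 ran from 0.108 to 0.217. The part of hepatocytes in the values of Fn1 and Vtn was not tested.

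Among the 7 small leucine-rich proteoglycans, which bind collagen fibrils, 6 were lower in Scd2f/f;CC DEN+WAD liver than in Scd2f/f DEN+WAD liver (49.6% of all genes). Fmod and Lum were at least 2-fold lower (4.07% of all genes). Dcn (decorin), which coats collagen fibrils and binds TGF-β, had a mean of 70.3 in control liver, 118 in Scd2f/f DEN+WAD liver and 67.2 in Scd2f/f;CC DEN+WAD liver. Bgn (biglycan), its closest relative, had means of 30.7, 57.9 and 30.9. Both genes were therefore higher in Scd2f/f DEN+WAD liver, by 1.68-fold and 1.89-fold, and near the control level in Scd2f/f;CC DEN+WAD liver, at 0.956 and 1.01 times control. Lum (lumican), which regulates fibril assembly, had a mean of 5.91 in control liver, 9.39 in Scd2f/f DEN+WAD liver and 4.24 in Scd2f/f;CC DEN+WAD liver, 2.21-fold lower in the last than in Scd2f/f DEN+WAD liver. Fmod (fibromodulin), which binds collagen and lysyl oxidase, had means of 0.957, 1.11 and 0.315 and was the lowest of the 7 relative to Scd2f/f DEN+WAD liver, with a ratio of 0.284. Prelp, which links basement membranes to collagen, had means of 13.9, 31.7 and 20, and had the highest ratio of the family between Scd2f/f;CC DEN+WAD liver and control liver, at 1.44. Aspn (asporin) and Ogn (osteoglycin) did not share the pattern. Aspn had means of 0.349, 0.097 and 0.134, and Ogn of 0.994, 0.705 and 0.56, all under 1 and highest in control liver. Some of these genes are neighbors in the genome (GRCm38): Dcn and Lum lie 47 kb apart on chromosome 10 between 97479609 and 97572704, with ratios of Scd2f/f;CC DEN+WAD liver to Scd2f/f DEN+WAD liver of 0.569 and 0.452. Prelp and Fmod lie 116 kb apart on chromosome 1 between 133910304 and 134048278, with ratios of 0.631 and 0.284. Aspn and Ogn, the closest pair at 40.5 kb on chromosome 13 between 49544443 and 49624502, had ratios on opposite sides of 1, at 1.38 and 0.794.

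Large proteoglycans were split by level. Vcan (versican), which swells provisional matrix with chondroitin sulfate chains, had a mean of 0.265 in control liver, 1.06 in Scd2f/f DEN+WAD liver and 0.366 in Scd2f/f;CC DEN+WAD liver, and was 2.9-fold lower in the last than in Scd2f/f DEN+WAD liver. Hspg2 (perlecan) and Agrn (agrin), the heparan sulfate proteoglycans of basement membranes, differed less between groups. Hspg2 had means of 25.4, 37.5 and 31.7, and Agrn of 10.3, 16.9 and 14.5. Both were above control liver in Scd2f/f;CC DEN+WAD liver, with ratios of 1.25 and 1.41.

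The elastic fiber core genes were all at least 2-fold higher in Scd2f/f DEN+WAD liver than in control liver (9.37% of all genes). Eln and Fbn1 were more than 2-fold lower in Scd2f/f;CC DEN+WAD liver than in Scd2f/f DEN+WAD liver (at least 2-fold lower, 4.07% of all genes). Eln, which encodes tropoelastin, had a mean of 0.561 in control liver, 1.4 in Scd2f/f DEN+WAD liver and 0.546 in Scd2f/f;CC DEN+WAD liver. Fbn1 (fibrillin-1), the main microfibril protein, had means of 3.58, 9.02 and 3.83. The means of Eln and Fbn1 in Scd2f/f;CC DEN+WAD liver were 0.973 and 1.07 times those in control liver. Fbn2 (fibrillin-2), mostly a fetal microfibril protein, had means of 0.054 and 0.252 in control liver and Scd2f/f DEN+WAD liver, and its mean in Scd2f/f;CC DEN+WAD liver, 0.0349, is the lowest value of that column. No fold is given for Fbn2 against that value.

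Elastic fiber assembly genes were lower in Scd2f/f;CC DEN+WAD liver than in Scd2f/f DEN+WAD liver in 7 of 7 cases (49.6% of all genes). Fbln5 (fibulin-5), which ties tropoelastin to cells and lysyl oxidases, had a mean of 1.9 in control liver, 3.08 in Scd2f/f DEN+WAD liver and 1.26 in Scd2f/f;CC DEN+WAD liver. Efemp2 (fibulin-4), needed for crosslinking of elastin by lysyl oxidase, had means of 1.09, 2.09 and 1.11. Emilin1, a glycoprotein at the surface of elastic fibers, had means of 9.48, 15.1 and 10.8. Efemp2 and Emilin1 thus lay close to control liver in Scd2f/f;CC DEN+WAD liver, and Fbln5 lay below it with a ratio of 0.663. Fbln2 (fibulin-2) had means of 1.27, 1.45 and 0.761. The paper uses it as a portal fibroblast marker, and reports that many Fbln2-expressing cells in this model were activated HSC. Efemp1 (fibulin-3) had means of 7.9, 8.38 and 5.35. These last genes differed little between control liver and Scd2f/f DEN+WAD liver, by 1.14-fold and 1.06-fold, and were lower than both in Scd2f/f;CC DEN+WAD liver. Fbln1 and Mfap4, a microfibril-associated protein, were under 1 in all groups, with ratios of Scd2f/f;CC DEN+WAD liver to Scd2f/f DEN+WAD liver of 0.47 and 0.3.

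Among the crosslinkers, which are lysyl oxidases that oxidize lysines of collagen and elastin, 4 of 5 were lower in Scd2f/f;CC DEN+WAD liver than in Scd2f/f DEN+WAD liver (49.6% of all genes). Lox had a mean of 0.23 in control liver, 1.19 in Scd2f/f DEN+WAD liver and 0.309 in Scd2f/f;CC DEN+WAD liver. Its ratio of Scd2f/f DEN+WAD liver to control liver, 5.17, was the largest of the 40 genes. Loxl1, which acts mainly on elastin, had means of 0.902, 2.01 and 0.525, and Loxl2, which acts on collagen IV and fibrillar collagen, of 2.4, 5.32 and 2.98. Lox and Loxl1 were 3.85-fold and 3.83-fold lower in Scd2f/f;CC DEN+WAD liver than in Scd2f/f DEN+WAD liver, and Loxl2 1.79-fold lower. Loxl3 differed less, with means of 0.824, 1.08 and 0.717. Loxl4 had means of 0.463, 0.465 and 0.56 and was the one crosslinker not lower in Scd2f/f;CC DEN+WAD liver.

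The 4 latent TGF-β binding proteins were all lower in Scd2f/f;CC DEN+WAD liver than in Scd2f/f DEN+WAD liver (49.6% of all genes), and they differed widely in size of ratio. Ltbp2, which binds fibrillin and not latent TGF-β, had a mean of 0.456 in control liver, 1.61 in Scd2f/f DEN+WAD liver and 0.354 in Scd2f/f;CC DEN+WAD liver, and a ratio of 0.22 between the DEN+WAD groups. Ltbp3, which carries latent TGF-β out of the cell, had means of 1.43, 2.62 and 1.05 and a ratio of 0.401. Ltbp1, which anchors latent TGF-β in fibronectin and fibrillin matrix, had means of 2.78, 3.57 and 1.9. Ltbp1 and Ltbp3 lay on either side of the 2-fold limit and were both under the control level in Scd2f/f;CC DEN+WAD liver, at 0.683 and 0.734 times control. Ltbp4, the most abundant of the 4, had means of 18.8, 21.3 and 18, so its ratios were 1.13 for Scd2f/f DEN+WAD liver against control liver and 0.845 for Scd2f/f;CC DEN+WAD liver against Scd2f/f DEN+WAD liver, the nearest to 1 of the 4.

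Matricellular genes were lower in Scd2f/f;CC DEN+WAD liver than in Scd2f/f DEN+WAD liver in 7 of 7 cases (49.6% of all genes), with ratios from 0.318 for Thbs1 to 0.781 for Postn. Thbs1 (thrombospondin-1), an activator of latent TGF-β, had a mean of 3.63 in control liver, 7.19 in Scd2f/f DEN+WAD liver and 2.29 in Scd2f/f;CC DEN+WAD liver. Tnc (tenascin-C), a protein of wounds and tumor stroma, had means of 1.09, 3.44 and 1.3. Thbs1 in Scd2f/f;CC DEN+WAD liver was below control liver, with a ratio of 0.631, and Tnc was slightly above it, with a ratio of 1.19. Thbs2 (thrombospondin-2) had means of 1.96, 4.09 and 2.25, and Sparc, a collagen-binding protein, of 22.9, 38.5 and 23.9. Postn (periostin), which helps collagen crosslinking, had means of 5.6, 8.14 and 6.36. These 3 genes were closer to control liver in Scd2f/f;CC DEN+WAD liver than in Scd2f/f DEN+WAD liver. Sparcl1 had means of 3.03, 3.84 and 2.23, and Tnxb (tenascin-X), which links collagen fibrils in loose connective tissue, of 13.5, 14 and 9.87. Tnxb differed by 1.04-fold between Scd2f/f DEN+WAD liver and control liver, and was 1.42-fold lower in Scd2f/f;CC DEN+WAD liver than in Scd2f/f DEN+WAD liver. Of the last pair of genes, Mgp (matrix Gla protein), an inhibitor of calcification, was under 1 throughout, with means of 0.717, 0.512 and 0.331. Pcolce, which enhances removal of the procollagen C-propeptide, had means of 2.39, 2.94 and 2.02.

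**Figure D3:**
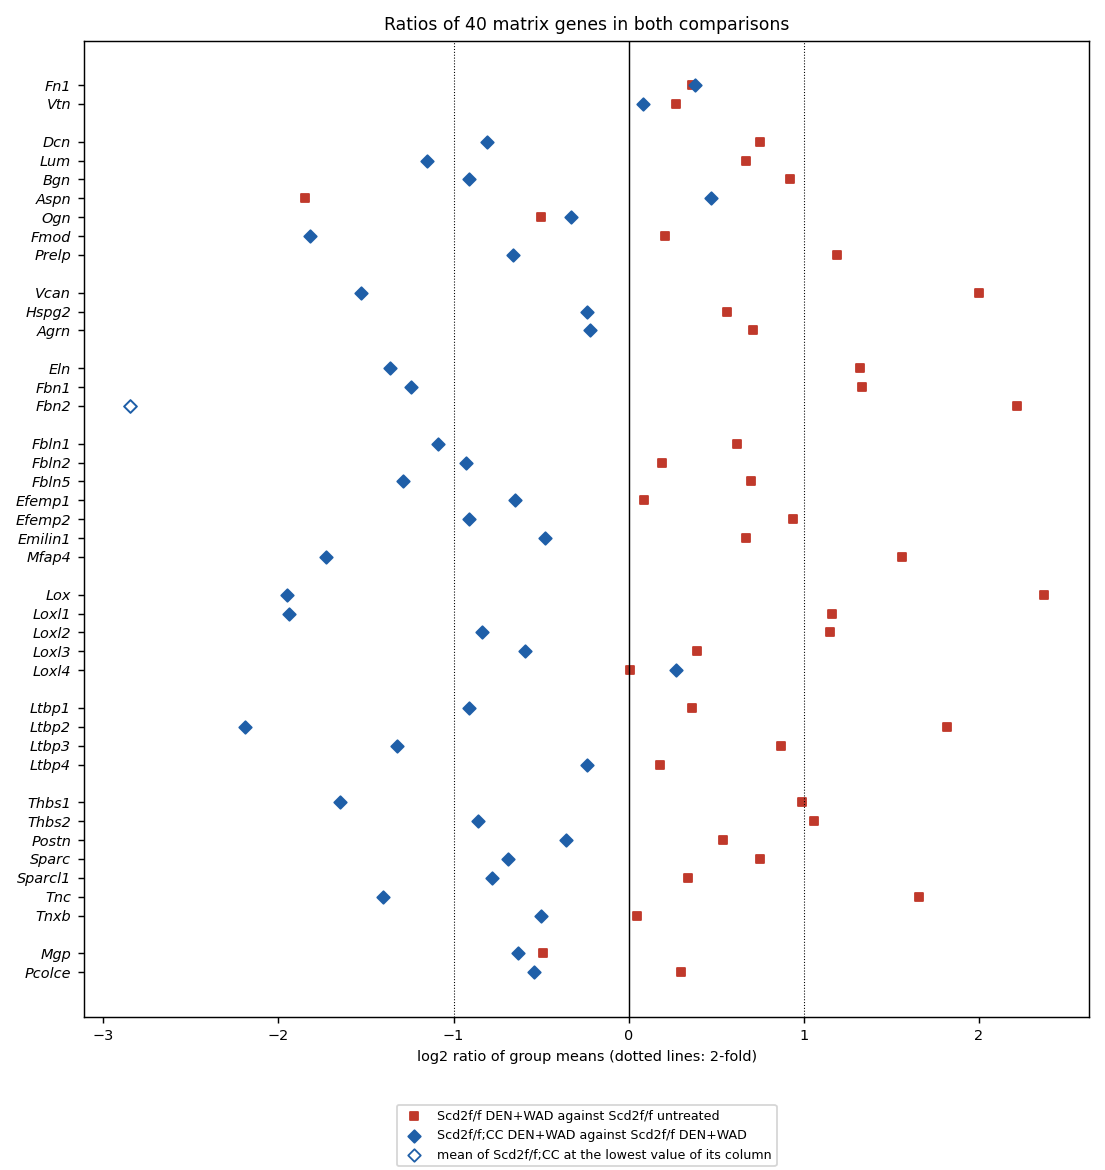
Log2 ratios of the group means of the 40 genes, by role, for Scd2f/f DEN+WAD liver against control liver (squares) and Scd2f/f;CC DEN+WAD liver against Scd2f/f DEN+WAD liver (diamonds), which share the Scd2f/f DEN+WAD liver mean. Dotted lines mark 2-fold, 15 diamonds lie left of -1 and 12 squares right of 1; the open diamond is Fbn2, whose lower mean is the lowest value of its column.

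Genes that act with these proteins were counted in the same way, beside 4.07% of all genes at least 2-fold lower in Scd2f/f;CC DEN+WAD liver than in Scd2f/f DEN+WAD liver and 9.37% at least 2-fold higher in Scd2f/f DEN+WAD liver than in control liver. Of 11 fibrillar and fibril-associated collagens and partners, 5 were at least 2-fold lower in Scd2f/f;CC DEN+WAD liver than in Scd2f/f DEN+WAD liver and 7 at least 2-fold higher in Scd2f/f DEN+WAD liver than in control liver, with median log2 ratios of -0.97 and 1.11. Col1a1, a chain of type I collagen, had means of 4.69 in control liver, 19.6 in Scd2f/f DEN+WAD liver and 4.51 in Scd2f/f;CC DEN+WAD liver, and Col1a2, its partner chain, of 6.65, 21.7 and 6.93. The highest ratios of Scd2f/f;CC DEN+WAD liver to Scd2f/f DEN+WAD liver among these collagens were 0.646 for Col14a1 and 1.06 for Col5a3. Of 15 measured genes for procollagen-processing enzymes and their helper proteins, 3 were at least 2-fold lower in Scd2f/f;CC DEN+WAD liver (median log2 ratio -0.40). Where the mean reached 1 in either DEN+WAD group, the lowest ratios were those of Plod2 (0.263), a lysyl hydroxylase, and P3h2 (0.418), a prolyl hydroxylase. The highest were those of P3h1 (1.01) and Bmp1 (1.18), the latter a procollagen C-proteinase. Of 25 enzymes that build glycosaminoglycan chains, 2 were at least 2-fold lower, and the median was 0.03. By any amount, 14 of the 25 were higher, as were 8298 of all 16755 genes. Against control liver, 6 of 25 were at least 2-fold higher in Scd2f/f DEN+WAD liver, and 1 of the 19 with a mean of at least 1. Xylt1 (0.151, 0.748 and 0.344) and Chst11 (0.157, 0.74 and 0.212) were under 1 throughout and highest in Scd2f/f DEN+WAD liver. Among the proteoglycan core proteins, 6 of 7 small and 3 of 3 large ones were lower by any amount (49.6% of all genes). The difference from the enzymes was not tested. Of 19 measured receptors for matrix proteins, 2 were at least 2-fold lower, Ddr1 (0.253), a collagen receptor, and Itgb8 (0.4), an integrin subunit that binds latent TGF-β, and the median was -0.19.

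**Figure D4:**
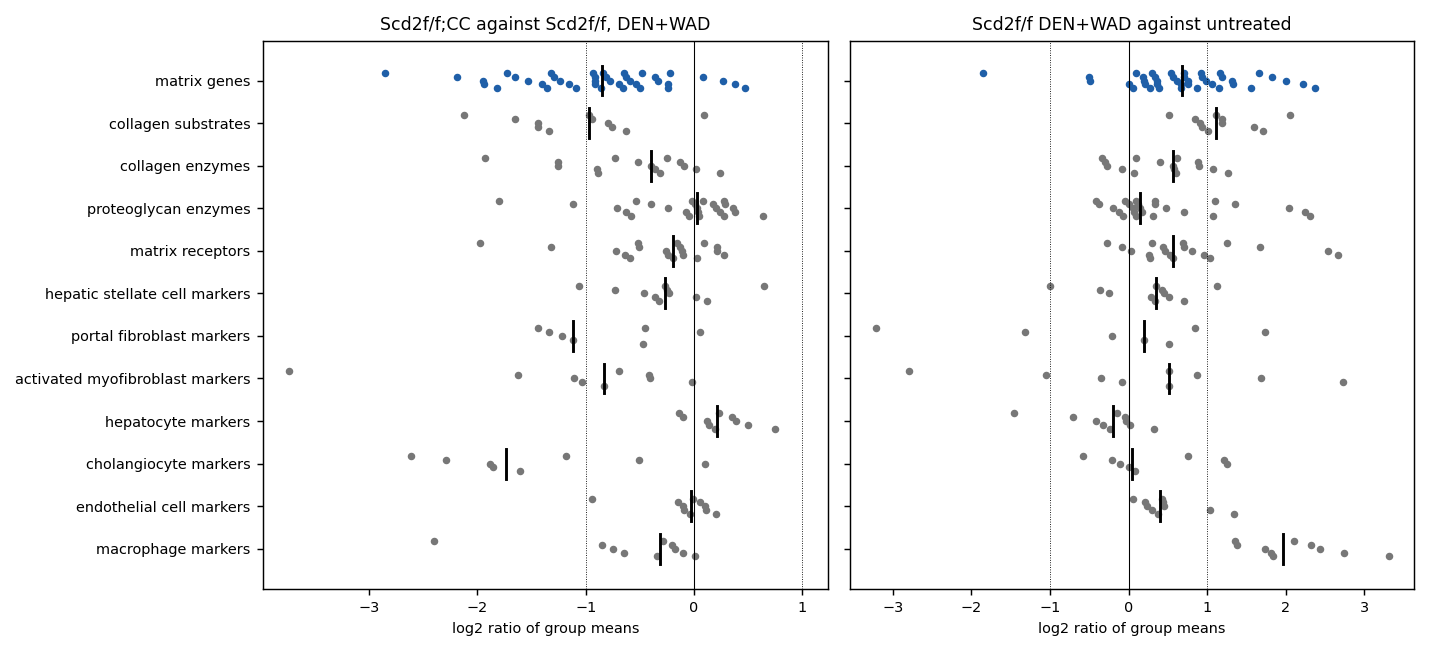
Log2 ratios of group means for the genes of the matrix set, of collagens, collagen-processing enzymes and helper proteins, glycosaminoglycan-building enzymes, matrix receptors and cell type markers, with 1 point for each gene and a bar at the median of each list. The matrix set and the collagens lie mostly below 0 in Scd2f/f;CC DEN+WAD liver against Scd2f/f DEN+WAD liver (medians -0.85 and -0.97), and the glycosaminoglycan enzymes lie around 0 (median 0.03).

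In whole liver, fewer cells of a type and less RNA per cell cannot be told apart. Summed means of marker lists moved with the matrix genes in several cases, and their counts at 2-fold have the same shares of all genes beside them, 4.07% and 9.37%. The 11 HSC markers summed to 186 in control liver, 235 in Scd2f/f DEN+WAD liver and 197 in Scd2f/f;CC DEN+WAD liver. Reln weighed most in these sums, with means of 73, 89.2 and 71.6. Between the DEN+WAD groups, 1 of 11, Pdgfrb, was at least 2-fold lower in Scd2f/f;CC DEN+WAD liver. By any amount, 8 were lower there (49.6% of all genes) and 3 higher (Hhip, Nes and Ecm1). Against control liver, 8 were higher in Scd2f/f DEN+WAD liver (53.7% of all genes) and 3 lower (Hhip, Des and Nes). The 7 measured portal fibroblast markers summed to 6.69, 7.27 and 3.44, with 4 of 7 at least 2-fold lower in Scd2f/f;CC DEN+WAD liver. That sum was lowest in Scd2f/f;CC DEN+WAD liver, but Thy1 and Entpd2 were above control liver there, with ratios of 1.53 and 1.04. Msln was above Scd2f/f DEN+WAD liver, with a ratio of 1.04. These means were low, at 0.335, 1.11 and 0.511 for Thy1 and 0.968, 1.38 and 1.01 for Entpd2. Those of Msln were 0.796, 0.0853 and 0.0887. The 9 measured markers of activated myofibroblasts summed to 23.2, 32.7 and 18. Of the 9, 4 were at least 2-fold lower in Scd2f/f;CC DEN+WAD liver than in Scd2f/f DEN+WAD liver. Against control liver, Scd2f/f DEN+WAD liver had 2 of 9 at least 2-fold higher and 2 at least 2-fold lower (4.69% of all genes). Lgals1 had the largest means of the list in both DEN+WAD groups (4.45, 14.4 and 8.93). Tagln had means of 7.85, 3.79 and 1.75, and Acta2 (smooth muscle actin) of 1.27, 1.2 and 0.388. The 8 cholangiocyte markers summed to 64.9, 60.4 and 25.9, with 6 of 8 at least 2-fold lower in Scd2f/f;CC DEN+WAD liver. Spp1 weighed most in these sums, with means of 52.3, 45.1 and 14.8. Of the 8, 4 were under 1 in all groups, and 2 of the other 4 were at least 2-fold lower. Macrophage markers, 10 of 10 at least 2-fold higher in Scd2f/f DEN+WAD liver than in control liver, summed to 106, 406 and 329, and the 10 endothelial markers to 170, 220 and 222. The part of these cell types in the values of the matrix genes was not tested. The hepatocyte markers were the most abundant of these lists in all 3 groups, which matched the label of the tissue as liver.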

How the data were processed

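RNA of liver from 9 mice was purified with a PicoPure kit, polyadenylated RNA was prepared with TruSeq v2 and the authors sequenced the libraries on a NextSeq. Per the submitters' processing notes, STAR 2.6.1 and Partek 6 were used with mm10. The authors quantified reads on Gencode by expectation maximization, normalized counts to the upper quartile and fitted group means with Partek Gene Specific Analysis. The deposited signal of each gene is the authors' least-squares mean of normalized counts of a group of 3 mice. The deposited table also holds the authors' p-values, false discovery rates, ratios and signed fold changes (a score derived from the ratio), and none of these columns was used. The mean of Scd2f/f DEN+WAD liver stands in both comparisons with identical values and was used once. Upper-quartile scaling equalizes the upper range of genes, so values are relative within a library, and reads shared between similar genes were split by the authors' quantification.

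Ratios and log2 ratios were taken from the means without a pseudocount. Group means alone were analysed and the authors' p-values were left unused, so no test or interval is given, and depth is unknown. Coordinates and exon lengths came from GENCODE M21 on GRCm38, by symbol, for 40 of 40 members, and promoters from RefSeq. Members with a mean of at least 1 were named with all 3 means, and others where they carry a count; of other genes, Scd2, Col1a1, Acta2 and those with the 2 lowest and 2 highest ratios in a list and a mean of at least 1 were eligible, and any further gene was named after its values were seen. The members, lists and roles were chosen with earlier results of these data known. The comparison of protein sequences that had been planned was not made. The counting step was tested on simulated data. Alternatives were pseudocounts of 0.1 and 1, filters at a mean of 1 and 10, fold limits of 1.5 and 3, and centring on the median gene. Counts by level, percentiles by level and values without Fbn2 or without Fn1 and Vtn, and the count of members that changed direction, were added after the data had been seen. Python 3.11.15, NumPy 2.4.6, pandas 2.3.3 and Matplotlib 3.10.9 were used.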

Additional observations from a re-analysis of the deposited data

How the results depend on the processing

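A pseudocount added to both means cannot change the direction of a ratio, so only centring on the median gene could do so. Between Scd2f/f;CC DEN+WAD liver and its Scd2f/f DEN+WAD counterpart the subtracted median was 0.00, so centring could hardly move a ratio, and none changed direction. In Scd2f/f DEN+WAD liver against control liver, centring took Loxl4 below 1 (36 genes higher). In Scd2f/f;CC DEN+WAD liver against control liver, it took Bgn and Efemp2 below 1 (25 genes lower). Counts past a fold limit depended on how low means were treated. In Scd2f/f;CC DEN+WAD liver against Scd2f/f DEN+WAD liver, the 15 genes at least 2-fold lower became 2 with a pseudocount of 1 (Thbs1 and Fbn1), 0 with a mean of at least 10, 28 at 1.5-fold and 7 at 3-fold. The median log2 ratio of -0.85 became -0.59 with a pseudocount of 1 and -0.48 with a mean of at least 10. In Scd2f/f DEN+WAD liver against control liver, the 12 genes at least 2-fold higher became 3 with a pseudocount of 1 (Prelp, Fbn1 and Tnc), 1 with a mean of at least 10, 23 at 1.5-fold and 5 at 3-fold, the 1 lower gene became 0 with a pseudocount of 1 and with either filter, and the median of 0.68 became 0.55 with a pseudocount of 1. In Scd2f/f;CC DEN+WAD liver against control liver, the 3 genes at least 2-fold lower became 1 with a pseudocount of 0.1 or at 3-fold, 0 with a pseudocount of 1 and with either filter, and 9 at 1.5-fold, where 1 gene, Fn1, was higher. The median there, -0.12, changed sign to 0.02 with a mean of at least 1 and 0.19 with a mean of at least 10. A pseudocount and a filter shrink or remove low genes by construction. The other 34 values kept within 1.5 times for counts and 0.1 for medians. Without Fn1 and Vtn the medians of the 3 comparisons were -0.88, 0.71 and -0.19. No paired analysis was possible because the values are group means, and for the same reason no mouse could be left out. The unknown depth and spread limit all genes with a mean under 1 most.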

Other observations

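Receptors for matrix proteins on leukocytes and other cells were among those highest in Scd2f/f DEN+WAD liver relative to control liver, and they were named after their values were seen. Cd44, the receptor for hyaluronan, had a mean of 3.3 in control liver, 21 in Scd2f/f DEN+WAD liver and 14.6 in Scd2f/f;CC DEN+WAD liver. Cd36, which binds thrombospondins and takes up fatty acids, had means of 23.7, 138 and 88.5, and Sdc3, a heparan sulfate proteoglycan of the cell surface, of 14.1, 45 and 40.4. In Scd2f/f;CC DEN+WAD liver these genes were 4.42, 3.73 and 2.87 times as high as in control liver. Of the thrombospondins, Thbs1 was 0.631 times and Thbs2 1.15 times as high there as in control liver. The difference between these ratios was not tested, and macrophage markers, with summed means of 106, 406 and 329, were also above control liver in both DEN+WAD groups.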
